A study of Homo sapiens with 2 samples.

Results

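The cells described here are H1 human embryonic stem cells in the upper range of the RNA share of 15 S-phase genes, called S-high cells below, 269 of 5221 cells in all. A barcode counted as a cell with at least 1000 unique molecular identifiers (UMIs, each 1 captured RNA molecule), at least 500 genes and at most 20% of UMIs from mitochondrially encoded genes. Within each library an S-high cell was in the top 10% by its share of UMIs over 15 S-phase genes (PCNA, MCM2, MCM3, MCM4, MCM5, MCM6, MCM7, TYMS, RRM1, RRM2, GINS2, CDC6, CLSPN, UNG and SLBP), and its share over 6 G2/M genes (CCNB1, CDC20, PLK1, CENPF, TOP2A and TPX2) was at or below the library median. That gave 116 of 2286 cells in the KO library and 153 of 2935 cells in the WT library. H1 (WA01) is an established human embryonic stem cell line. The KO library is from H1 cells labelled a homozygous ZNF263 KO, made with Cas9, where ZNF263 is a zinc finger transcription factor. The WT library is from H1 cells of WT genotype, and both were cultured routinely, dissociated to single cells and captured with barcoded beads in microwells. There is 1 library per genotype, so no p-value is given, and the 95% intervals cover counting error only. Cells passing these limits held 6.54% of 54559376 UMIs in the KO library and 7.68% of 60578040 UMIs in the WT library. The libraries listed 834126 barcodes in common, but only 20 were cells in both and 0 were S-high in both.

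A dividing cell copies its DNA once in S phase. In G1 the MCM helicase is loaded on replication origins by the origin recognition complex with CDC6 and CDT1, and in S phase CDC45 and the GINS complex activate it, PCNA clamps the polymerases to DNA, and ribonucleotide reductase (RRM1 and RRM2), thymidylate synthase (TYMS) and their partners supply nucleotides. Many of these genes are transcribed by E2F factors late in G1 and early in S phase. Human embryonic stem cells are known for a short G1 and a large share of cells in S phase.

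The promoters of the 15 S-phase genes are shown because these genes are known as E2F targets and the cells were chosen on their summed RNA. Both strands of the RefSeq promoter windows, 250 bases before to 50 after each start (GRCh38.p14), were searched for the 4 E2F-type octamers TTTCCCGC, TTTGGCGC, TTTCGCGC and TTTGCCGC, which can overlap each other. Of the 15 genes 13 had a window, and 10 of these held a match in at least 1 window, against 3.99% of all 27305 genes with a window (3.31% of all windows). In 6 lists of other DNA replication genes, 48 of 153 genes held a match, in the G2 and M list 3 of 46, and in the core pluripotency list 0 of 14. The 100 bases before the start are printed 5′ to 3′ for 3 genes of the rule and for HELLS and DUT, which the rule did not use, with the matches in capitals. They lie at chr20:5126623-5126722 on the minus strand (PCNA), chr2:135876444-135876543 on the minus strand (MCM6), chr16:85688955-85689054 on the minus strand (GINS2), chr10:94545688-94545787 on the plus strand (HELLS) and chr15:48332097-48332196 on the plus strand (DUT).
PCNA: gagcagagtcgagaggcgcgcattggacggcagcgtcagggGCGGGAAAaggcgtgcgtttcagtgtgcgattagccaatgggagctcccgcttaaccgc
MCM6: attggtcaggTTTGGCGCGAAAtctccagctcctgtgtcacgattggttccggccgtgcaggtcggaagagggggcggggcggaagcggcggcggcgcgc
GINS2: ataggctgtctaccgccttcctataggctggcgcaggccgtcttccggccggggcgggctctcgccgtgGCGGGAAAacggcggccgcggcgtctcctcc
HELLS: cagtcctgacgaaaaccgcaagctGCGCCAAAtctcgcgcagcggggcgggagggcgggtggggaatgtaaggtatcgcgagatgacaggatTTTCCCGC
DUT: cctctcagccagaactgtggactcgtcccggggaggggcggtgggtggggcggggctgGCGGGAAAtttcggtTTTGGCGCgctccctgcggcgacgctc
A match is a string of letters in these windows and was not tested as a binding site.

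The choice of cells rests on few molecules. S-high KO cells held 4 to 19 UMIs of the 15 genes with a median of 5, against a median of 3 in the other KO cells. S-high WT cells held 5 to 19 with a median of 6, against a median of 3 in the other WT cells. The lowest share among S-high KO cells was 0.376% of UMIs and the highest share just outside was 0.375%, and in the WT library these were 0.3998% and 0.398%. With 1 UMI fewer of the 15 genes, 75 of the 116 KO cells and 91 of the 153 WT cells would have fallen below the limit, and with 1 more, 116 KO and 148 WT cells outside it would have joined. A median of 5 of the 15 genes was detected per S-high cell in either library (2 to 11 in KO, 3 to 9 in WT), and the gene with most UMIs in a cell had a median of 2, so the share was spread over several genes. The class is a range of a score with many cells near its limit, and the plot of both shares by cell shows no gap. With so few molecules per cell, counting error could fill a gap, so the plot cannot tell whether a separate population exists.

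**Figure D1:**
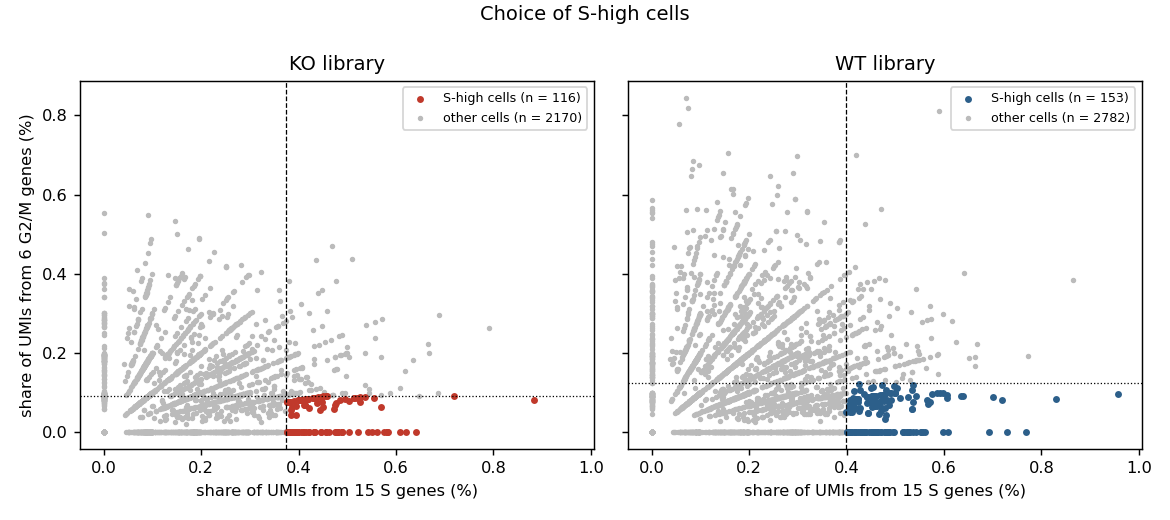
Share of UMIs from the 15 S-phase genes (x axis, percent) against share from the 6 G2/M genes (y axis, percent), 1 point per cell, for the KO library (116 S-high of 2286 cells) and the WT library (153 of 2935 cells). Dashed lines mark the top 10% by S share and dotted lines the median G2/M share, and no gap separates coloured S-high cells from grey other cells.

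Among the genes of the rule, the minichromosome maintenance helicase contributed most. The levels below are UMIs per 1000000 UMIs of the summed cells (CPM), and they describe the choice and are not findings. MCM4 was at 653 CPM in S-high KO cells and 242 CPM in other KO cells, and at 803 CPM in S-high WT cells and 316 CPM in other WT cells. MCM3 was at 603 and 279 CPM in S-high and other KO cells and at 694 and 328 CPM in S-high and other WT cells. PCNA, the sliding clamp, was at 427 and 226 CPM in S-high and other KO cells and at 391 and 208 CPM in S-high and other WT cells. RRM2, the S-phase subunit of ribonucleotide reductase, was at 552 and 196 CPM in S-high and other KO cells and at 430 and 196 CPM in S-high and other WT cells. GINS2 was at 320 and 106 CPM in S-high and other KO cells and at 342 and 143 CPM in S-high and other WT cells. TYMS and MCM2 were close to undetected, with 0 UMIs in S-high KO cells (0 allows up to 18.8 CPM) and with 1 TYMS and 2 MCM2 UMIs in S-high WT cells, so 13 genes carry the score. The 15 genes together were at 4488 CPM in S-high and 1860 CPM in other KO cells and at 4816 CPM in S-high and 2113 CPM in other WT cells. Barcodes with 10 to 100 UMIs, which may hold free RNA or shallow cells, were at 1868 CPM in the KO library and 2115 CPM in the WT library, close to the other cells. Whether free RNA contributed to the S-high share was not tested.

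The label was checked by leaving each gene out of the rule in turn, choosing cells on the other 14 and measuring the gene left out. Over the 13 detected genes, S-high KO cells chosen in this way held 347 UMIs of the left-out genes against 322 at the rate of the other cells, a ratio of 1.08 (interval 0.967 to 1.20). S-high WT cells held 544 against 506, a ratio of 1.07 (interval 0.986 to 1.17). With the gene in the rule, the median ratio over these genes was 2.59 in KO and 2.43 in WT. Most of the height of each gene in S-high cells was thus lost once it had no part in choosing them. RRM2 was at 265 CPM in S-high and 209 CPM in other KO cells when held out, and at 223 and 207 CPM in S-high and other WT cells. MCM5 had held-out ratios of 1.23 (interval 0.68 to 2.06) in KO and 1.47 (interval 0.95 to 2.17) in WT. PCNA was at 0.93 (interval 0.66 to 1.28) in KO and 0.97 (interval 0.71 to 1.29) in WT. Of the 13 genes, 7 lay above 1 in KO and 10 in WT, and the intervals of all 13 included 1 in each library. At a minimum of 1500 UMIs per cell the summed held-out ratio was 1.12 (interval 0.964 to 1.29) in KO and 1.24 (interval 1.11 to 1.37) in WT. At a minimum of 500 UMIs, where shares are coarser, it was 1.10 (interval 1.02 to 1.19) in KO and 1.10 (interval 1.03 to 1.17) in WT. Over 10 settings its interval included 1 in 7 for KO and in 4 for WT, and the part of depth was not tested. At 1000 UMIs per cell the genes left out were thus at most slightly higher in the chosen cells, and the cells are named by the rule alone.

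**Figure D2:**
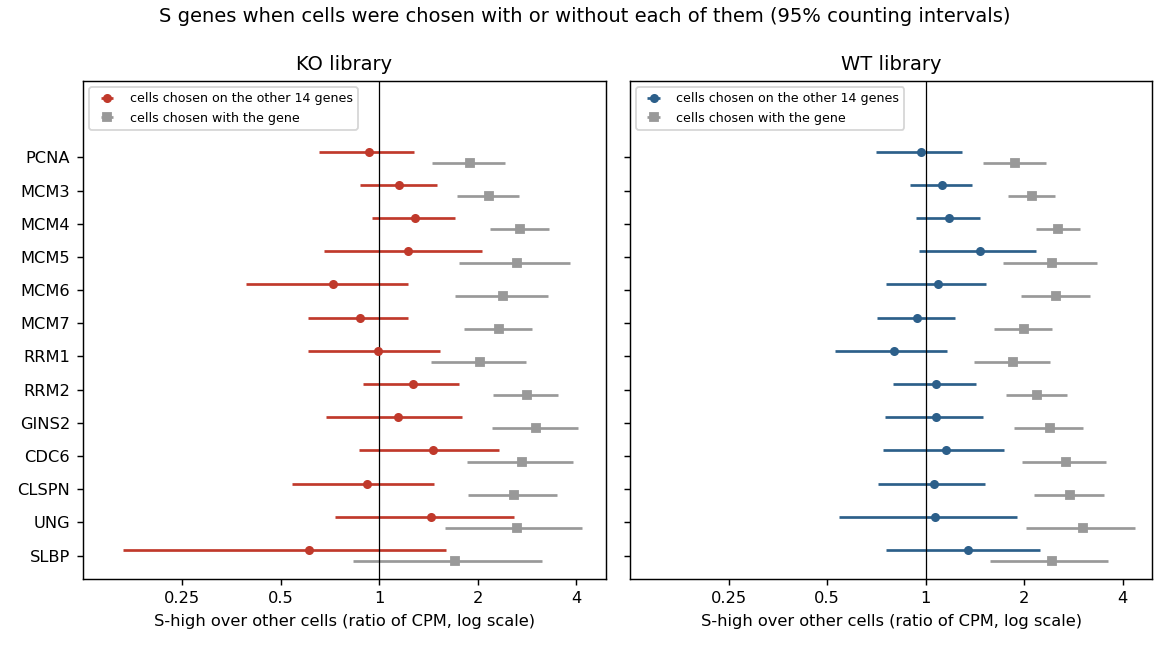
Level in S-high over other cells (x axis, ratio of CPM on a log scale) for 13 genes of the rule with enough UMIs, in the KO and the WT library. Grey squares are cells chosen with the gene (median ratios 2.59 in KO and 2.43 in WT) and coloured circles are cells chosen on the other 14 genes, which lie near 1. Bars are 95% counting intervals.

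DNA replication genes outside the rule were slightly higher in S-high cells in both libraries. Summed over 6 lists with 177 matched genes, they were at 14286 CPM in S-high and 13110 CPM in other KO cells, a ratio of 1.09 (interval 1.04 to 1.14). In the WT library they were at 15702 CPM in S-high and 14307 CPM in other cells, a ratio of 1.10 (interval 1.06 to 1.14). Of the 72 replication genes at 50 CPM or more, 24 were higher in S-high cells in both libraries and 9 lower in both, against 26.2% and 26.4% of all 2913 genes of that level outside the rule. None of the 72 was at least 1.5-fold apart in both libraries. The median log2 ratio of S-high over other cells was 0.12 in KO and 0.16 in WT, against 0.03 and 0.02 over all genes of that level.

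Among origin licensing and firing genes, 4 of 10 measured genes were higher in both libraries and 0 lower in both, against 26.2% and 26.4% of all genes of at least 50 CPM. WDHD1, which links the helicase to DNA polymerase alpha, was at 87.9 CPM in S-high and 57.5 CPM in other KO cells and at 114 CPM in S-high and 79.4 CPM in other WT cells, with ratios of 1.53 (interval 0.82 to 2.63) and 1.44 (interval 0.93 to 2.14). GMNN, the licensing inhibitor geminin, was at 320 CPM in S-high and 256 CPM in other KO cells, and at 290 and 262 CPM in S-high and other WT cells. CDT1, the loading factor that geminin binds, had ratios of 1.30 in KO and 0.99 in WT. The list as a whole had ratios of 1.18 (interval 1.03 to 1.36) in KO and 1.10 (interval 0.976 to 1.23) in WT.

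Polymerase, clamp loader and Okazaki fragment genes lay on either side of 1. Of 18 measured genes, 2 were higher and 3 lower in both libraries (26.2% and 26.4% of all genes), and the list had ratios of 0.926 (interval 0.823 to 1.04) in KO and 1.06 (interval 0.971 to 1.16) in WT. POLD2, a subunit of polymerase delta, was at 69.0 CPM in S-high and 86.5 CPM in other KO cells and at 57.1 CPM in S-high and 99.0 CPM in other WT cells, with a WT ratio of 1.17 at a minimum of 500 UMIs. RNASEH2A, the catalytic subunit of RNase H2, had ratios of 0.69 (interval 0.36 to 1.23) in KO and 0.85 (interval 0.54 to 1.27) in WT. POLE3, a histone-fold subunit of polymerase epsilon, went the other way, at 138 CPM in S-high and 110 CPM in other KO cells and at 136 and 112 CPM in S-high and other WT cells.

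Of 17 measured genes of nucleotide supply, 6 were higher and 3 lower in both libraries, not far from the 26.2% and 26.4% of all genes. DUT, the dUTPase that keeps uracil out of DNA, was at 377 CPM in S-high and 306 CPM in other KO cells and at 320 CPM in S-high and 244 CPM in other WT cells, with ratios of 1.23 (interval 0.93 to 1.60) and 1.31 (interval 1.02 to 1.67). DUT has processed pseudogenes that can share its reads, so its count is uncertain. ATIC, an enzyme of purine synthesis, had ratios of 1.35 in KO and 1.20 in WT, and UMPS, of pyrimidine synthesis, 0.63 and 0.73. The list had ratios of 1.08 (interval 0.993 to 1.17) in KO and 1.12 (interval 1.04 to 1.19) in WT.

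Chromatin assembly and maintenance genes were higher in both libraries for 6 of 11 measured genes and lower in both for 1, against 26.2% and 26.4% of all genes. SUPT16H, a subunit of the histone chaperone FACT, was at 496 CPM in S-high and 421 CPM in other KO cells and at 610 CPM in S-high and 471 CPM in other WT cells. Its WT ratio was 0.986 when cells were thinned to 1000 UMIs before the choice. That choice gave a larger class of 346 WT cells, of which 37.9% were S-high in the main choice. HELLS, a chromatin remodeller of DNA methylation maintenance, was at 289 and 242 CPM in S-high and other KO cells and at 316 and 232 CPM in S-high and other WT cells, with ratios of 1.19 (interval 0.87 to 1.61) and 1.36 (interval 1.06 to 1.73). CHAF1A, which deposits histones behind the fork, had ratios of 1.35 in KO and 1.11 in WT, and DNMT1, the maintenance methyltransferase, 1.20 and 1.07. The list had ratios of 1.12 (interval 1.04 to 1.21) in KO and 1.08 (interval 1.01 to 1.14) in WT.

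Histone genes whose RNA is made mainly in S phase mostly lack a poly(A) tail, so a poly(A) capture sees little of them. Only 2 of 49 matched genes reached 50 CPM. H4C3, a histone H4 gene, was at 684 CPM in S-high and 574 CPM in other KO cells and at 716 CPM in S-high and 576 CPM in other WT cells, with ratios of 1.19 (interval 0.97 to 1.45) and 1.24 (interval 1.05 to 1.46). The other measured gene, H4C11, went in opposite directions. It was at 119 and 76.3 CPM in S-high and other KO cells and at 48.3 and 84.1 CPM in S-high and other WT cells. The list summed to ratios of 1.31 (interval 1.11 to 1.54) in KO and 1.13 (interval 0.978 to 1.31) in WT. Barcodes with 10 to 100 UMIs were at 965 CPM in KO and 971 CPM in WT for this list, against 985 CPM in S-high and 751 CPM in other KO cells and 874 CPM in S-high and 770 CPM in other WT cells, so the level in shallow barcodes was close to or above that in S-high cells.

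In the replication checkpoint and repair list, 5 of 14 measured genes were higher and 2 lower in both libraries, against 26.2% and 26.4% of all genes. BRCA1, of homologous recombination, was at 75.3 CPM in S-high and 44.6 CPM in other KO cells and at 87.8 CPM in S-high and 59.0 CPM in other WT cells, from 12 and 20 UMIs in the S-high cells. DTL, a receptor of the ubiquitin ligase that degrades CDT1 in S phase, had ratios of 1.46 (interval 0.68 to 2.75) in KO and 1.27 (interval 0.73 to 2.08) in WT, and CHEK1, the checkpoint kinase CHK1, 1.34 (interval 0.90 to 1.93) and 1.05 (interval 0.74 to 1.46). Of 9 measured cyclin, CDK and E2F genes, 1 was higher and 2 lower in both, against the same 26.2% and 26.4%. MYBL2, an E2F target that drives later cell cycle genes, was the one higher in both at a mean of at least 50 CPM, at 119 CPM in S-high and 64.0 CPM in other KO cells and at 96.6 CPM in S-high and 71.7 CPM in other WT cells, with a KO ratio of 0.998 in the top 5% by S share. CKS1B, a CDK-binding protein gene, was at 100.4 and 131 CPM in S-high and other KO cells and at 57.1 and 122 CPM in S-high and other WT cells, with a WT ratio of 1.05 at a minimum of 500 UMIs.

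**Figure D3:**
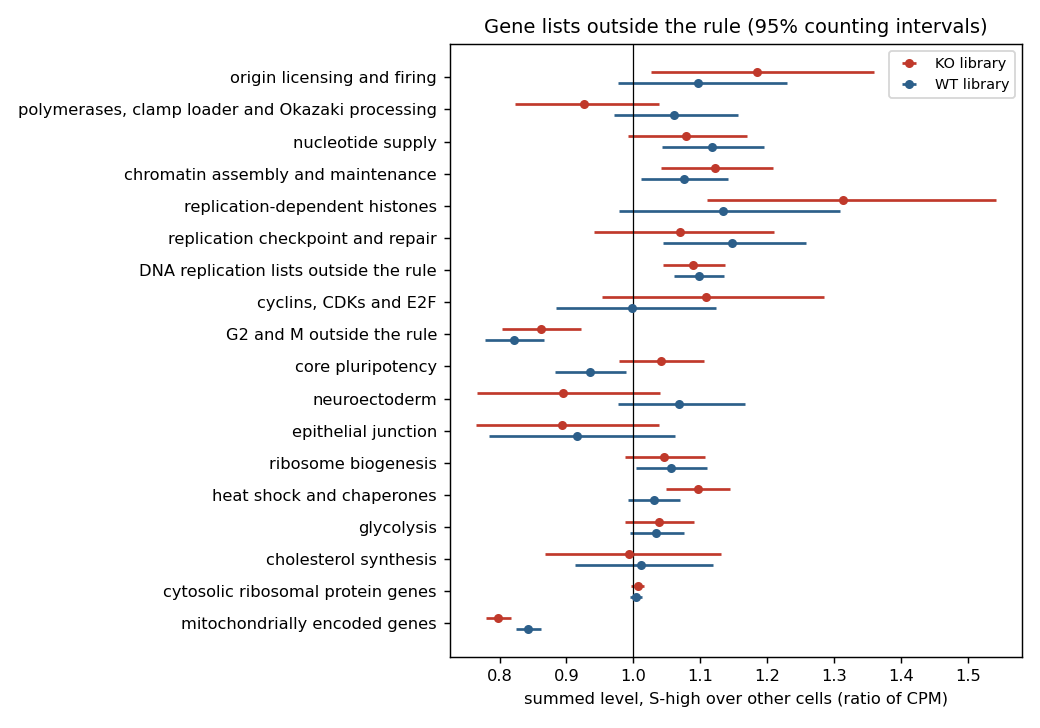
Summed level of each gene list in S-high over other cells (x axis, ratio of CPM) in the KO library (red) and the WT library (blue), with 95% counting intervals. The 6 DNA replication lists together lie at 1.09 and 1.10, the G2 and M list at 0.862 and 0.821 and the mitochondrially encoded genes at 0.798 and 0.843.

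The level of the replication lists rose over the whole range of the S share only at or below the median G2/M share. Among cells with a G2/M share at or below the median, the 6 replication lists were at 12171, 13267, 13610 and 14286 CPM in KO cells with S shares below the median, at 50 to 80%, at 80 to 90% and in the top 10%. In WT cells the same bands were at 13331, 14245, 15280 and 15702 CPM. In both libraries each band was above the one below it, and the intervals of the upper 2 bands overlapped (13705 to 14885 and 13103 to 14132 CPM in KO, 15192 to 16226 and 14805 to 15766 CPM in WT). Cells of the top 10% that were left out for a G2/M share above the median, 113 in KO and 141 in WT, had 13910 CPM in KO and 15726 CPM in WT, so the S-high cells did not stand above them beyond counting error. Among cells above the G2/M median the bands did not climb throughout in either library. They were at 12855, 13778, 15189 and 13910 CPM in KO and at 14178, 14767, 15976 and 15726 CPM in WT. The intervals of the upper 2 of these bands did not overlap in KO (14616 to 15779 and 13325 to 14514 CPM). In WT they did (15436 to 16529 and 15190 to 16277 CPM). The median mitochondrial share of the cells at or below the G2/M median went down along the bands. It was at 5.85%, 5.42%, 4.62% and 3.63% in KO and 4.78%, 4.35%, 4.01% and 3.80% in WT. Mitochondrial UMIs are among those over which the S share was taken, and their part in the replication levels was not tested.

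**Figure D4:**
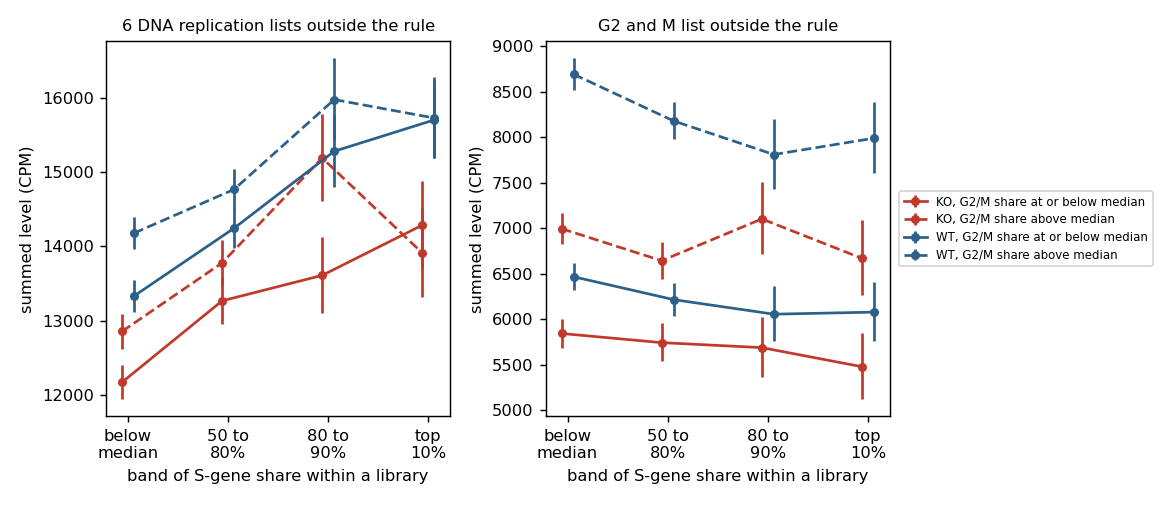
Summed level (y axis, CPM, not starting at 0) of the 6 replication lists outside the rule (left) and of the G2 and M list outside the rule (right) by band of S-gene share (x axis, low to high), in KO (red) and WT (blue) cells with a G2/M share at or below (solid) or above (dashed) the library median. Bars are 95% counting intervals. The solid replication lines climb to 14286 CPM in KO and 15702 CPM in WT.

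G2 and M genes outside the rule were lower in S-high cells, and the rule itself had limited 6 genes of the same phase. Of 42 measured genes outside the rule, 24 were lower in both libraries and 1 higher in both, against 26.4% and 26.2% of all genes. KPNA2, an importin alpha, was at 144 CPM in S-high and 324 CPM in other KO cells and at 215 CPM in S-high and 313 CPM in other WT cells, with ratios of 0.45 (interval 0.28 to 0.67) and 0.69 (interval 0.51 to 0.91). UBE2C, the ubiquitin-conjugating enzyme of the anaphase-promoting complex, had ratios of 0.63 (interval 0.37 to 0.98) and 0.69 (interval 0.47 to 0.99). MKI67, the proliferation antigen Ki-67, was at 37.7 CPM in S-high and 104 CPM in other KO cells and at 114 and 157 CPM in S-high and other WT cells. CCNB2 and AURKB, both mitotic regulators, had ratios of 0.62 and 0.73 in KO and 0.45 and 0.38 in WT. The list summed to ratios of 0.862 (interval 0.804 to 0.922) in KO and 0.821 (interval 0.778 to 0.867) in WT. Per cell, the median share of these genes was 0.542% in S-high and 0.621% in other KO cells and 0.570% in S-high and 0.697% in other WT cells. Against other cells that also were at or below the G2/M median, the ratios were 0.946 (interval 0.881 to 1.01) in KO and 0.961 (interval 0.909 to 1.02) in WT, and both intervals included 1.

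Mitochondrially encoded RNA was lower in S-high cells. The rule did not rank cells by it, but the S share was taken over all UMIs, mitochondrial ones included. More mitochondrial UMIs thus lower the S share of a cell by construction. How much of the difference this makes was not tested. The genes summed to 43894 CPM in S-high and 54977 CPM in other KO cells, a ratio of 0.798 (interval 0.779 to 0.818), and to 38885 CPM in S-high and 46119 CPM in other WT cells, a ratio of 0.843 (interval 0.825 to 0.861). Of 15 measured genes 14 were lower in both libraries, against 26.4% of all genes. By cell the median mitochondrial share was 3.63% in S-high and 5.14% in other KO cells and 3.80% in S-high and 4.39% in other WT cells. S-high cells made up 7.87% of the KO cells in the lowest tercile of mitochondrial share (60 of 762, interval 6.06% to 10.02%), 3.81% in the middle and 3.54% in the highest, and 6.75% (66 of 978, interval 5.26% to 8.51%), 4.29% and 4.60% in the WT terciles. Cytosolic ribosomal protein genes were level, with ratios of 1.01 in KO and 1.00 in WT. S-high cells were also shallower, with a median of 1207.5 UMIs against 1297.5 in other KO cells and 1253 against 1331 in other WT cells, and a share is coarser in a shallow cell. At equal depth of 1000 UMIs they had a median of 650 genes against 650 in other KO cells and 675 against 676 in other WT cells. Without mitochondrial and ribosomal protein genes in the totals, the replication lists had ratios of 1.08 (interval 1.03 to 1.12) in KO and 1.09 (interval 1.05 to 1.13) in WT.

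Few single genes set the S-high cells apart by size. Outside the rule 1579 genes had a mean of 100 CPM or more, of which 0 were at least 1.5-fold higher in both libraries and 4 (0.253%) were at least 1.5-fold lower in both, and at a looser limit, a ratio of 5 to 4, these were 15 (0.95%) higher and 38 (2.41%) lower. Any ratio above 1 in both libraries was found for 452 genes (28.6%) and below 1 in both for 424 (26.9%). The 4 were SSR2, of the translocon-associated complex, the splicing-related SUGP2, POLR2I, a subunit of RNA polymerase II, and CYP51A1, of cholesterol synthesis, none with an interval below 1 in both libraries. The counts depended on the settings, and smaller groups carry wider counting error. A minimum of 1500 UMIs per cell left 40 KO and 60 WT S-high cells, with 3 genes higher and 10 lower. The top 5% by S share left 56 KO and 77 WT cells, with 2 genes higher and 17 lower. TOMM20, a receptor of the mitochondrial outer membrane, was at 176 CPM in S-high and 291 CPM in other KO cells and at 198 CPM in S-high and 289 CPM in other WT cells, with ratios of 0.60 (interval 0.40 to 0.88) and 0.68 (interval 0.50 to 0.92), but at a minimum of 1500 UMIs its KO ratio was 1.01. FGFR1, an FGF receptor, had ratios of 0.63 (interval 0.40 to 0.95) and 0.69 (interval 0.49 to 0.95). KPNA2, UBE2C, SFSWAP, CDKN3, PRPF38B and CTSC complete the 12 lowest.

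At the upper end PRKDC, the catalytic subunit of the DNA-dependent protein kinase, which acts in double-strand break repair, was at 433 CPM in S-high and 274 CPM in other KO cells and at 509 CPM in S-high and 372 CPM in other WT cells. Its ratios were 1.58 (interval 1.22 to 2.02) and 1.37 (interval 1.12 to 1.65), both above 1. SNX6, a sorting nexin, had ratios of 1.45 (interval 0.93 to 2.16) and 1.43 (interval 1.01 to 1.97), PAWR, a pro-apoptotic WT1 regulator, 1.51 (interval 1.04 to 2.11) and 1.38 (interval 0.99 to 1.86), and ANP32B, a histone chaperone, 1.31 (interval 0.80 to 2.03) and 1.34 (interval 1.01 to 1.74). LUC7L, STRBP, IWS1, ESD, MFF, UBA1 and DFFA were also among the 12 with the highest ratio in their lower library, all of these between 1.27 and 1.47 in both. Ratios of all 1579 genes had a median log2 of 0.02 in both libraries, with the central 95% from -0.63 to 0.53 in KO and from -0.56 to 0.43 in WT, so these genes lie near the edge of the general spread. The 12 highest and the 12 lowest genes were named for these ratios. Their ratios and intervals therefore only describe the ends of the range.

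The core pluripotency list had ratios of S-high over other cells of 1.04 (interval 0.979 to 1.11) in KO and 0.935 (interval 0.883 to 0.989) in WT, below 1 beyond counting error in WT. It was at 6980 CPM in S-high and 6706 CPM in other KO cells and at 5606 CPM in S-high and 5997 CPM in other WT cells, and barcodes with 10 to 100 UMIs were close to these, at 6745 CPM in KO and 5853 CPM in WT. LIN28A, an RNA-binding pluripotency factor, was at 791 CPM in S-high and 756 CPM in other KO cells and at 808 CPM in S-high and 800.2 CPM in other WT cells. L1TD1, another stem cell RNA-binding protein, was at 2009 and 1864 CPM in S-high and other KO cells and at 1374 and 1441 CPM in S-high and other WT cells. TDGF1, a NODAL co-receptor, was at 220 and 263 CPM in S-high and other KO cells and at 158 and 148 CPM in S-high and other WT cells. DPPA4, a pluripotency-associated chromatin protein, was at 477 and 541 CPM in S-high and other KO cells and at 492 and 529 CPM in S-high and other WT cells. SOX2 was at 295 and 292 CPM in S-high and other KO cells and at 219 and 327 CPM in S-high and other WT cells, with ratios of 1.01 (interval 0.74 to 1.35) and 0.67 (interval 0.50 to 0.89). POU5F1, whose pseudogenes can share its reads, held 18 UMIs in S-high KO cells and 8 in S-high WT cells, and NANOG held 5 in each. Of 16 measured core pluripotency genes 2 were higher and 5 lower in both libraries, against 26.2% and 26.4% of all genes. Of the markers of other cells, primitive streak and mesendoderm genes were low, with 13 UMIs in S-high KO and 18 in S-high WT cells. Amnion and trophoblast genes were also low, with 5 and 3 UMIs. Neuroectoderm genes were not low, at 1124 and 1256 CPM in S-high and other KO cells. In the WT library they were at 2309 and 2161 CPM in S-high and other cells. Fibroblast and feeder genes were at 395 and 459 CPM in S-high and other KO cells and at 408 and 364 CPM in S-high and other WT cells, of which THY1, also expressed by stem cells, made up 320 and 241 CPM in S-high KO and S-high WT cells. The following counts also stand against 26.2% higher and 26.4% lower among all genes. Of 15 measured ribosome biogenesis genes 6 were higher and 2 lower in both libraries, of 15 chaperone genes 6 and 5, of 14 glycolysis genes 6 and 2, of 10 cholesterol genes 2 and 4, and of 7 epithelial junction genes 0 and 4. Of 6 measured genes each, 1 was higher and 0 lower in the neuroectoderm list and 1 and 2 in the ATF4 list, and of 4 p53 targets 1 and 1.

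The genotypes were then compared within the S-high cells. The cells were ranked within each library and so are not matched between genotypes, with a median S share of 0.430% in S-high KO and 0.468% in S-high WT cells. The targeted gene held 0 UMIs in S-high KO cells (0 allows up to 18.8 CPM) and 2 in S-high WT cells (8.78 CPM), too few to compare. It was at 7.92 CPM in other KO and 18.3 CPM in other WT cells, a KO over WT ratio of 0.43 (interval 0.27 to 0.68). FST, the activin antagonist follistatin, was at 43.9 CPM in S-high KO and 329 CPM in S-high WT cells, and at 54.0 CPM in other KO and 329 CPM in other WT cells. Its KO over WT ratio was 0.13 (interval 0.05 to 0.29) in S-high and 0.16 (interval 0.14 to 0.19) in other cells. PRTG, the cell surface protein protogenin, had ratios of 0.24 (interval 0.12 to 0.46) in S-high and 0.18 (interval 0.16 to 0.21) in other cells. PTN, the growth factor pleiotrophin, was at 239 CPM in S-high KO and 795 CPM in S-high WT cells, with ratios of 0.30 (interval 0.21 to 0.43) in S-high and 0.44 (interval 0.41 to 0.47) in other cells. NEFM, a neurofilament gene, had ratios of 0.29 in S-high and 0.43 in other cells, and the centrin gene CETN2 and the profilin gene PFN2 0.27 and 0.30 in S-high against 0.69 and 0.81 in other cells.

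On the other side, RCC2, a regulator of chromosome condensation family gene, was at 295 CPM in S-high KO and 83.4 CPM in S-high WT cells, with KO over WT ratios of 3.54 (interval 2.04 to 6.38) in S-high and 3.02 (interval 2.69 to 3.40) in other cells. MFGE8, a secreted glycoprotein gene, had ratios of 2.40 (interval 1.51 to 3.87) in S-high and 1.73 (interval 1.59 to 1.89) in other cells, and APOE, apolipoprotein E, 2.34 (interval 1.49 to 3.72) and 1.41 (interval 1.29 to 1.53). SLC16A1, a lactate transporter, was at 339 CPM in S-high KO and 154 CPM in S-high WT cells, with ratios of 2.21 (interval 1.42 to 3.48) in S-high and 1.20 (interval 1.09 to 1.32) in other cells. EIF1B, LRRC8A and TRMT10C had ratios of 2.86, 2.55 and 2.35 in S-high cells and 1.35, 1.34 and 1.12 in other cells. RPS28P4, a pseudogene that can share reads with RPS28, had 2.31 in S-high and 1.76 in other cells. Genes at the ends of the list were named for their ratio in S-high cells, so those ratios are a description of the ends of the range. Only genes with a ratio on the same side of 1 in the other cells could be named. The shared direction in S-high and other cells was thus set by the choice of genes.

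**Figure D5:**
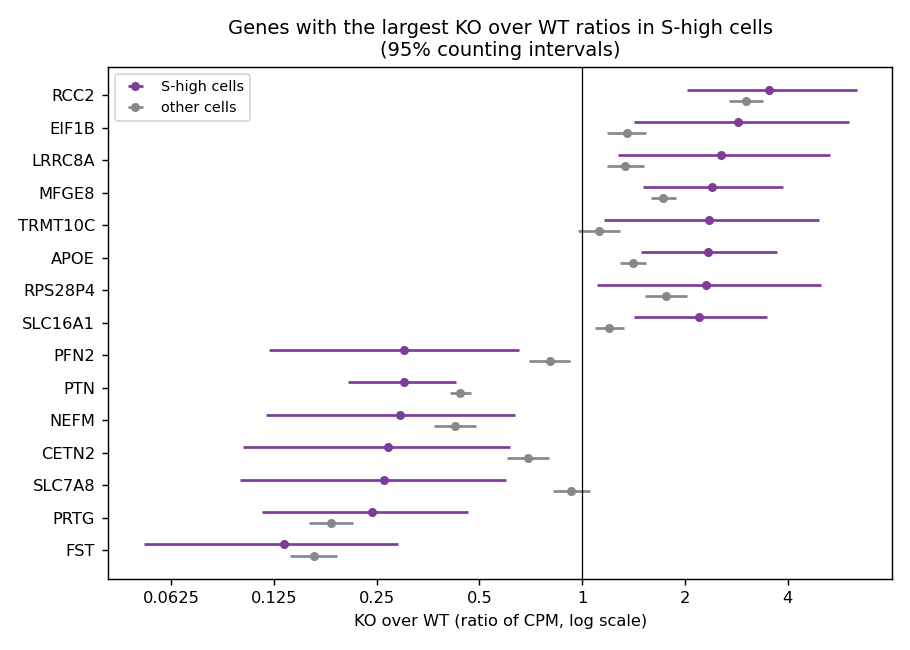
KO over WT ratio (x axis, ratio of CPM on a log scale) in S-high cells (purple) and other cells (grey) for the 15 genes outside the rule with the highest and lowest ratios in S-high cells at a mean of at least 100 CPM. Bars are 95% counting intervals, which are wider in S-high cells, with FST at 0.13 and RCC2 at 3.54.

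At or above a mean of 100 CPM, 1592 genes were compared between genotypes, and 104 (6.53%) were at least 1.5-fold higher and 160 (10.1%) at least 1.5-fold lower in KO than in WT among S-high cells. Among other cells these were 20 (1.26%) and 31 (1.95%). The S-high cells held 159315 UMIs in KO and 227800 in WT, and the other cells 3408566 and 4422591. With fewer UMIs, more genes pass a 1.5-fold limit by counting error. The larger counts in S-high cells are therefore no measure of a larger genotype difference there. The higher genes shared 13, which is 12.5% of those in S-high and 65.0% of those in other cells, and the lower genes shared 24, 15% and 77.4%. The 6 replication lists were at 0.910 of the WT level in S-high KO cells (interval 0.863 to 0.959) and at 0.916 in other KO cells (interval 0.905 to 0.928). The neuroectoderm list was at 0.487 (interval 0.408 to 0.578) in S-high and 0.581 (interval 0.560 to 0.602) in other cells, and the epithelial junction list at 1.38 (interval 1.12 to 1.71) and 1.42 (interval 1.36 to 1.48). The core pluripotency list was at 1.245 (interval 1.15 to 1.35) in S-high and 1.12 (interval 1.10 to 1.14) in other cells. With 1 library per genotype, genotype and library cannot be told apart in any of these values.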

How the data were processed

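The 2 deposited matrices hold UMI counts per gene and barcode (whole numbers, not normalized), made by the authors from poly(A) RNA captured on barcoded beads in microwells, per the labels' protocols. STAR 2.7.10a and UMI-tools 1.1.2, and with Subread its featureCounts 2.0.1, are listed per the submitters' processing notes without roles, as is the build hg38. In the KO matrix 15 entries came beyond the number declared in its header and were kept.

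Counts were summed over S-high and over other cells of each library and scaled to CPM, counts per 1000000 of all their UMIs. Ratios carry exact conditional binomial 95% intervals, shares of cells exact Clopper-Pearson intervals and CPM exact Poisson intervals, for counting error only. The summed held-out ratios are the exception. They carry the exact Poisson interval of the held-out UMIs, divided by the count at the rate of the other cells, which was taken as fixed. Those UMIs were pooled over overlapping choices of cells. For a count of 0 the level allowed was set at 3 UMIs, in place of the Poisson interval, which reaches higher. UMIs of 1 cell share their source, so the spread between cultures may be larger. With 1 library per genotype there was no test. Doublets were kept, and leaving out cells over 3 times the median UMI count was an alternative.

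Genes were named by rule: those of the cell choice; up to 4 per list at 50 CPM or more with the largest change in 1 direction in both libraries; the 12 highest and 12 lowest at 100 CPM or more by the ratio nearer to 1; the 8 highest and 8 lowest KO over WT ratios in S-high cells; ZNF263, POU5F1, NANOG and SOX2. The genes named for KO over WT ratios also had to have a ratio on the same side of 1 in the other cells. Embryonic stem cell markers were listed separately. A gene that the rule names is not reported here. The members and the lists were chosen with earlier results of these data known. The 20 CPM minimum for rule genes, the summed held-out ratio, the bands of S share, the mitochondrial terciles and the promoter octamers were chosen after values had been seen. The ratio scripts were tested on simulated data. Python 3.11.15, NumPy 2.4.6, SciPy 1.17.1, pandas 2.3.3 and matplotlib 3.10.9 were used, with random seed 7 for thinning. Promoter windows came from RefSeq (GRCh38.p14).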

Additional observations from a re-analysis of the deposited data

Results flagged for a closer look

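SLC7A8, an amino acid transporter gene, went in opposite directions in the 2 libraries. It was at 43.9 CPM in S-high and 125 CPM in other KO cells, a ratio of 0.351 (interval 0.14 to 0.73), and at 167 CPM in S-high and 134 CPM in other WT cells, a ratio of 1.24 (interval 0.87 to 1.72). The S-high KO value rests on 7 UMIs. The difference between the libraries was not tested, and SLC7A8 was singled out among genes named for a low KO over WT ratio in S-high cells.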

How the results depend on the processing

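The replication lists kept a ratio of S-high over other cells above 1, lower bound included, in all 11 settings of either library (1.05 to 1.12 in KO, 1.05 to 1.13 in WT, the lowest WT value, 1.05, from cells thinned to 1000 UMIs). The held-out ratio ranged from 1.05 to 1.13 in KO, with an interval that included 1 in 7 of 10 settings, and from 1.05 to 1.24 in WT, in 4 of 10, with 1.24 at a minimum of 1500 UMIs. Depth limits all single genes: most S-high ratios rest on under 100 UMIs. The cause of the changes below was not tested, apart from settings that by construction change how many cells or genes enter.

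S-high cells in KO and WT numbered 279 and 395 at a minimum of 500 UMIs and 40 and 60 at 1500 UMIs. They numbered 56 and 77 in the top 5% and 245 and 314 in the top 20%. Without the G2/M limit there were 229 and 294. After thinning there were 276 and 346, of which 36.2% and 37.9% were S-high in the main choice. The rule genes' ratio in KO and WT was 2.66 and 2.58 at a minimum of 500 UMIs, 2.11 and 2.09 at 1500 UMIs, 2.64 and 2.48 in the top 5%, 2.17 and 2.08 in the top 20%, 2.61 and 2.43 without the G2/M limit, and 2.12 and 1.92 after thinning. Genes at least 1.5-fold higher in both libraries numbered 3 at 1500 UMIs, 2 in the top 5%, 1 against other cells at or below the G2/M median, 1 without mitochondrial and ribosomal protein genes, 5 at a mean of 50 CPM and 15 at a ratio of 5 to 4. Genes lower in both numbered 0 at 500 UMIs, 10 at 1500 UMIs, 17 in the top 5%, 2 in the top 20%, 0 without the G2/M limit, 0 after thinning, 9 without mitochondrial and ribosomal protein genes, 23 at a mean of 50 CPM, 0 at 200 CPM and 38 at a ratio of 5 to 4. Genes at least 1.5-fold higher in KO than in WT among S-high cells numbered 183 in the top 5%, 50 in the top 20%, 65 without the G2/M limit, 44 after thinning and 204 without mitochondrial and ribosomal protein genes, where more genes pass the CPM minimum. Genes lower numbered 104 at 500 UMIs, 246 in the top 5%, 89 in the top 20%, 84 after thinning and 245 without those genes.

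Of 2995 values of single genes and lists, 154 moved beyond their interval and 22, all with an interval that excluded 1 before, turned round. In S-high over other cells these were, at 500 UMIs in WT, p53 targets at 0.981, POLD2 at 1.17, CKS1B at 1.05 and MSMO1 at 1.03. At 1500 UMIs they were NHP2 at 0.689 and TOMM20 at 1.01 in KO and ESD at 0.981 in WT. By share, MYBL2 was at 0.998 in KO in the top 5% and CLDN6 at 1.01 in WT in the top 20%. Without the G2/M limit, the core pluripotency list was at 1.001, UBE2C at 1.02 and ANP32B at 0.990 in WT, and CENPF at 1.16 in KO. After thinning, SUPT16H was at 0.986 in WT, and EPCAM at 1.02 and PRPF38B at 1.02 in KO. Against other cells at or below the G2/M median, the 6 G2/M genes of the rule were at 1.12 in KO, CCNB1 at 1.10 in KO and 1.247 in WT, CENPF at 1.54 in KO and 1.05 in WT, and TOP2A at 1.28 in KO. No paired analysis was possible because the labels give no shared replicate numbers and each genotype has 1 library.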
